A study of Rattus norvegicus with 6 samples.

Results

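Immediate early genes were measured as 10 named genes, Fos, Fosl1, Jun, Junb, Egr1, Nr4a1, Nr4a2, Nr4a3, Atf3 and Zfp36, in cardiac fibroblast cultures given pertussis toxin (PTX) or water. Their members were taken as every probe set whose platform annotation names exactly 1 gene, that gene being one of the 10, which gave 24 of the 8740 probe sets on the array. The array names 4736 genes in all. The cells were primary cultures from ventricles of Sprague-Dawley rats 1 to 2 days old, grown on multiwell plates. The PTX group held 3 samples treated with the toxin for 24 h, and the control group held 3 samples given water, each hybridised to its own 1-colour Affymetrix array. No label gives the toxin dose or tells whether replicate cultures were isolated separately, so the spread behind every p-value may be technical only.

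Immediate early genes are transcribed within minutes of a stimulus without new protein synthesis, and their short-lived transcripts usually decline again within hours. FOS and JUN proteins pair through leucine zippers to form the AP-1 transcription factor, EGR1 is a zinc finger activator, the NR4A proteins are orphan nuclear receptors, ATF3 is a stress-induced leucine zipper factor, and ZFP36 is not a transcription factor but binds AU-rich messages and speeds their decay. MAP kinases drive many of these genes through serum response factor, and cAMP drives them through CREB. PTX ADP-ribosylates Gi and Go type G proteins, which then no longer respond to receptors that feed both routes. The samples were taken at a single time, 24 h, so any early transient response lay outside the measurement.

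Array medians lay between 63.1 and 68.85, and precision is limited by there being 6 arrays. Control replicate 1 stood apart, with a Pearson correlation across all probe sets of 0.952 to 0.960 with the other arrays, against 0.978 to 0.985 among the other 5. The class of probe sets named rc_AA799 or rc_AA800 read low on it, with a median of -0.85 on the log2 scale from their mean over the 6 arrays, whereas those not named rc_ read 0.16 above theirs. Log2 changes of the members are therefore given with and without it. Of the fibroblast markers, all 11 measured genes lay above the filter on low signals and 6 were in the top 5% of every array, with summed signals of 90387 to 95714 in PTX samples and 92043 to 110512 in controls. Single markers within that sum went both ways. Thy1 averaged 269.4 with PTX and 540.6 in controls (limma adjusted p = 0.0743), Lum 2697 and 1325 (0.236) and Postn 3618 and 1843 (0.274). Of the 22 tested probe sets of the list, 4 were higher and 7 lower without overlap (50%), against 22.6% of all tested. Thy1 and Lum passed the 0.05 threshold without control replicate 1 (0.00771 and 0.00646), 9.09% of the list against 2.21% of all tested. The cultures also held bright transcripts of cardiomyocytes, 11 of 15 markers being in the top 5% of every array, with summed signals of 266656 to 300589 in PTX samples and 306318 to 385900 in controls, and Ryr2 as the only one below the filter. Of the 26 tested probe sets of that list, 1 was higher and 8 lower without overlap (34.6%), against 22.6% of all tested. Without control replicate 1, 4 were higher and 8 lower (46.2%), against 32.7%. None passed the 0.05 threshold with or without that array. Macrophage and leukocyte markers summed to 4236 to 5397 in PTX samples and 3496 to 3551 in controls, with 5 of 9 above the filter and Cd74, Csf1r, Itgam and Ptprc below it. Most of that sum was Lyz2, at 2908 to 4150 in PTX samples and 2139 to 2517 in controls. Fcgr2b averaged 611.7 in PTX samples and 324.8 in controls (limma adjusted p = 0.0876, or 0.00771 without control replicate 1). Cd14 averaged 249.2 and 223.2, and C1qb 199.5 and 270.5. Of the 7 tested probe sets of the list, 3 did not overlap between groups (42.9%), all higher with PTX, against 22.6% of all tested. Without control replicate 1, 1 of the 7 passed (14.3%), against 2.21% of all tested. Endothelial markers summed to 164.7 to 262.6 in PTX samples and 176.9 to 332.7 in controls, with Pecam1 and Vwf below the filter. The summed signal of the 7 smooth muscle and pericyte markers was 23202 to 24080 in PTX samples and 23123 to 25189 in controls. The part of these cell types in the results was not tested, and in bulk RNA fewer cells of a type and less RNA per cell cannot be told apart.

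RefSeq promoters of the rat assembly GRCr8 matched 6 of the 10 genes, the others being Fos, Jun, Nr4a3 and Atf3. The 250 bases before the annotated start are shown for Egr1, Zfp36 and Nr4a1, the genes whose windows held a CArG box or an EGR1 motif, since serum, cAMP and EGR1 are known to act through such elements. Capitals mark a CArG box, the core of the serum response element, the sequence TGACG, the core of the cAMP response element, or the EGR1 motif GCGNGGGCG, searched on both strands. The Egr1 window is at chr18:26736828-26737077 on the plus strand, the Zfp36 window at chr1:92799109-92799358 on the minus strand and the Nr4a1 window at chr7:134259888-134260137 on the plus strand, each written 5′ to 3′ on the gene's strand.
Egr1: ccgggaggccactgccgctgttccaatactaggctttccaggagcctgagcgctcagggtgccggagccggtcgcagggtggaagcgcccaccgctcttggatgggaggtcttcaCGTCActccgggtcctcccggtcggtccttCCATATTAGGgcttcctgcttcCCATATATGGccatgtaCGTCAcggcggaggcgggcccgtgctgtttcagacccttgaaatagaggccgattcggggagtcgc
Zfp36: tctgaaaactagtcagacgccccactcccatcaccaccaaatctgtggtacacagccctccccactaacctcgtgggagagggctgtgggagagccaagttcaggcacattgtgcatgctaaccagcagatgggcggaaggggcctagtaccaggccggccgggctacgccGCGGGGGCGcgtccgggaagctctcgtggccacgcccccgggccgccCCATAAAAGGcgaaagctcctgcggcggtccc
Nr4a1: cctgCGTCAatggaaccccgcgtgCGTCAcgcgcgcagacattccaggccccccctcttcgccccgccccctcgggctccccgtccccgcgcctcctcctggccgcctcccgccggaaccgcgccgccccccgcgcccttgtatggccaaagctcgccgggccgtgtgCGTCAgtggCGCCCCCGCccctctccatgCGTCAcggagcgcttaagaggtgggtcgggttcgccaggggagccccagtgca
Egr1 held 2 CArG boxes, beginning 105 and 83 bases before the start, and 2 copies of TGACG. Zfp36 held 1 CArG box, beginning 32 bases before the start, and 1 EGR1 motif. Nr4a1 held 4 copies of TGACG and 1 EGR1 motif. Fosl1 held 2 copies of TGACG, and Junb and Nr4a2 held 1 each. No matches overlapped. A CArG box was found in 2 of the 6 windows and in 1.501% of 27457 rat promoters of this length, TGACG in 5 of 6 and in 18.96%, and the EGR1 motif in 2 of 6 and in 4.53%. These matches describe the letters of the windows and show no binding.

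After 24 h of PTX none of the immediate early genes differed from control past the threshold on any tested probe set. Of the 24 probe sets, 19 of 8 genes passed the filter on low signals and were tested; those of Fosl1 and Nr4a3 and 1 of 2 for Nr4a2 did not pass it. Of the 19, 0 had a limma adjusted p under 0.05, where 0.0763% of all 5244 tested probe sets did, and the smallest adjusted p was 0.336. At an unadjusted p under 0.05 there was 1 of 19, against 12.6% of all tested probe sets; it was higher with PTX, as were 7.97% of all tested, and 0 were lower, against 4.61%. The PTX and control signals did not overlap for 4 of the 19 (21.1%), 2 higher and 2 lower, against 22.6% of all tested probe sets. Without control replicate 1, 0 of 19 passed, against 2.21% of all tested. At an unadjusted p under 0.05 there were then 2, against 15.2%. The groups did not overlap for 7 of 19 then, against 32.7%.

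The log2 change is the difference of mean log2(signal + 16) between PTX and control, which understates the fold of low signals. Its median over the 19 was -0.16, ranging from -0.64 to 0.72, against -0.02 for all tested probe sets. The change was below 0 for 13 of 19 (68.4%), against 52.9% of all tested probe sets. Among the 13 not named rc_, 11 were below 0 (84.6%), against 65.2% of all tested probe sets so named; without control replicate 1 these were 9 of 13 (69.2%), against 59.8%. Without control replicate 1 the median was -0.15 and 11 of 19 were below 0, against 52.3% of all tested probe sets. The 95% intervals, which are not adjusted for the number of probe sets, lay inside a 2-fold difference in either direction for 15 of the 19 and inside 1.5-fold for 5. The 4 with wider intervals were 1 probe set of Egr1, 1 of Nr4a2 and both of Zfp36. Without control replicate 1 the intervals of 17 lay inside 2-fold and of 7 inside 1.5-fold. No share of all tested probe sets stands beside these interval counts, so they describe the members only.

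**Figure D1:**
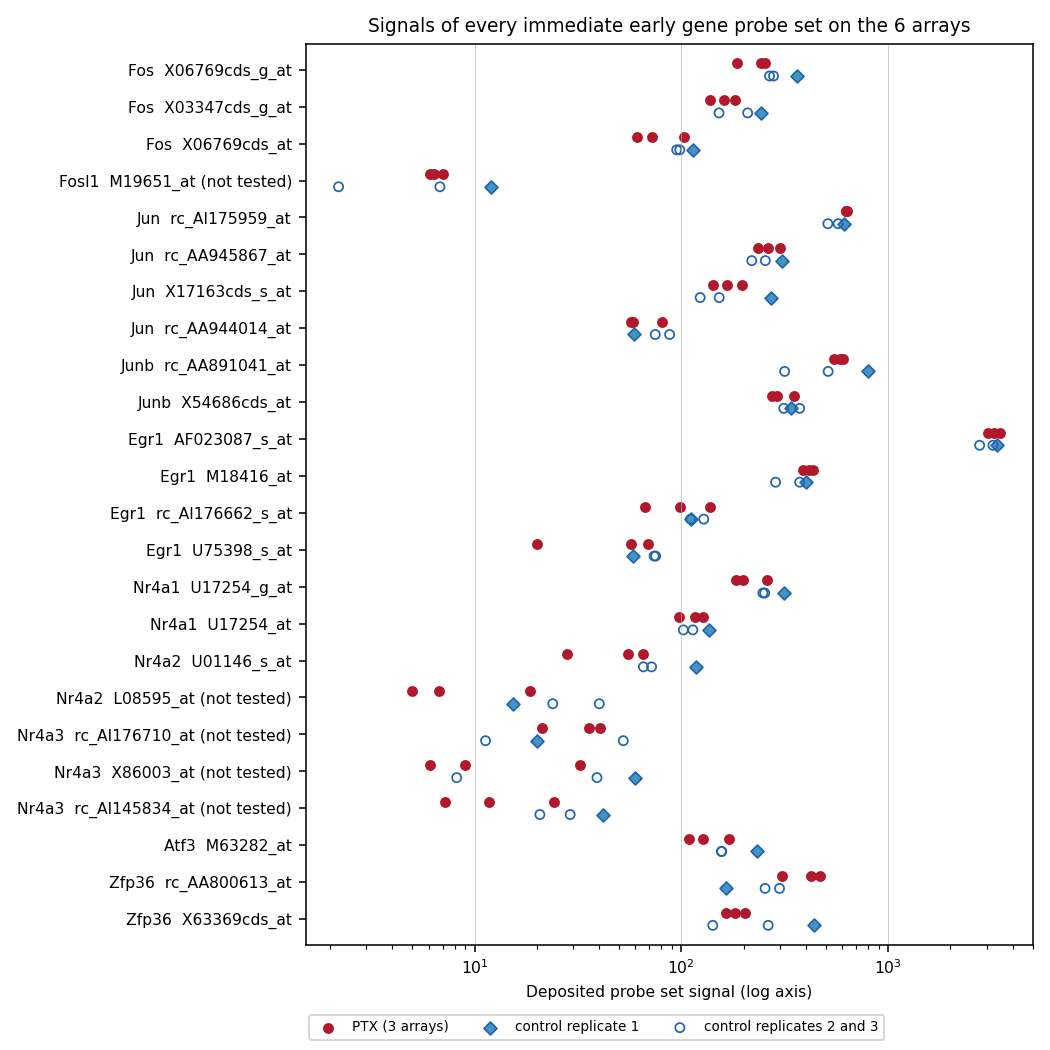
Deposited signal (log axis) of each of the 24 immediate early gene probe sets on the 6 arrays, with 3 PTX arrays as filled circles above, control replicate 1 as a diamond and control replicates 2 and 3 as open circles. The groups overlap for most probe sets, and control replicate 1 is often at the high end of the controls.

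Fos, which encodes the main inducible AP-1 partner of JUN, read lower on average with PTX on each of its 3 probe sets, without passing the test. On X06769cds_g_at, its brightest, the signals were 185.6, 255.0 and 241.9 in PTX samples 1 to 3, against 362.6, 279.4 and 267.1 in control samples 1 to 3. All 3 PTX samples lay below all 3 controls, and the highest control was replicate 1. The means were 227.5 ± 36.9 with PTX and 303 ± 52.0 in controls (SD, n = 3 each), a log2 change of -0.39 ± 0.18 (SE) and a 95% interval of 0.568- to 1.03-fold (limma adjusted p = 0.428). X06769cds_at, designed from the same sequence record and so no independent reading, had 60.9, 103.3 and 72.1 with PTX, against 114.3, 98.3 and 95 in controls. Here the highest PTX sample overlapped the controls, and the log2 change was -0.34 (adjusted p = 0.499). The third probe set, X03347cds_g_at, had 181.9, 137.0 and 161.7 with PTX, against 243.9, 209.4 and 152.2 in controls. Control replicate 3 lay within the PTX range on it, and the log2 change was -0.29 (adjusted p = 0.534). Without control replicate 1 the 3 log2 changes were -0.26, -0.27 and -0.15, in the order in which the probe sets are given here. They were below 0 in every alternative setting in which they were tested, the stricter filter leaving X06769cds_at out. Part of these settings, such as the filters and the replicate block, cannot alter a log2 change.

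Fosl1, which encodes the FOS relative FRA-1, was near the bottom of the signal range. Its only probe set, M19651_at, read 6.1, 6.4 and 7.0 with PTX, against 12.0, 6.8 and 2.2 in controls. The PTX samples lay inside the control range, and the probe set was below the filter and so not tested. With no filter its log2 change was -0.01 (adjusted p = 0.991), and without control replicate 1 it was 0.14.

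Jun, the most common AP-1 subunit partner of FOS, showed changes close to 0 and of both signs on its 4 probe sets. On the brightest, rc_AI175959_at, the signals were 627.8, 623.1 and 631.3 with PTX, against 612.0, 573.5 and 511.4 in controls. The PTX samples agreed closely and all lay above the controls, by a small margin over control replicate 1. The log2 change was 0.15 ± 0.13 (SE, adjusted p = 0.612), with a 95% interval of 0.8999- to 1.37-fold, and 0.21 without control replicate 1. The other probe sets of Jun overlapped between groups. Their log2 changes were 0.03 for rc_AA945867_at (0.15 without control replicate 1), -0.04 for X17163cds_s_at and -0.14 for rc_AA944014_at (-0.27 without that array). X17163cds_s_at read 143.0, 165.8 and 196.0 with PTX, against 270.2, 123.4 and 152.5 in controls, and its log2 change was 0.26 without control replicate 1, its highest sample. None of the 4 passed without that array either, with adjusted p between 0.450 and 0.694.

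Junb encodes another JUN protein, a weaker activator than JUN that can oppose it. On rc_AA891041_at it read 546.9, 608.2 and 584.4 with PTX, against 799.4, 315.9 and 513.0 in controls. Control replicate 1 was far above the PTX samples and the other controls were below them, with means of 579.8 ± 30.9 with PTX and 542.8 ± 243 in controls (SD, n = 3 each). The log2 change was 0.19 ± 0.29 (SE, adjusted p = 0.776), and 0.51 without control replicate 1 (unadjusted p = 0.0179, adjusted p = 0.214), where all PTX samples lay above both remaining controls. The median change of all 174 tested probe sets beginning with rc_AA891 was 0.17, or 0.08 without control replicate 1. The other Junb probe set, X54686cds_at, read 350.8, 290.6 and 276.1 with PTX, against 341.0, 373.7 and 313.0 in controls. It pointed the other way, with overlapping groups and a log2 change of -0.16 both with and without that array (adjusted p = 0.641 and 0.660).

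Egr1, whose promoter with its CArG boxes is printed above, did not differ detectably between PTX and water on any of its 4 probe sets. These read at very different levels, with PTX means from 3258 on AF023087_s_at to 48.8 on U75398_s_at. The level of Egr1 in the cultures is therefore not settled here. AF023087_s_at, its brightest probe set, had 3048.5, 3483.4 and 3240.8 with PTX, against 3367.6, 3216.1 and 2772.2 in controls. The groups overlapped, with means of 3258 ± 218 with PTX and 3119 ± 309 in controls (SD, n = 3 each). The log2 change was 0.07 ± 0.13 (SE, adjusted p = 0.824), and its 95% interval of 0.853- to 1.28-fold was the narrowest among the tested members over all 6 arrays; without control replicate 1 the change was 0.12. M18416_at had 387.3, 431.9 and 413.6 with PTX, against 400.8, 285.7 and 373.6 in controls. Its groups overlapped through control replicate 1, and the log2 change was 0.22 (adjusted p = 0.556), or 0.32 without that array (adjusted p = 0.342). The dimmer probe sets of Egr1 had negative values with overlapping groups. The log2 change was -0.22 on rc_AI176662_s_at (adjusted p = 0.684) and -0.48 on U75398_s_at (adjusted p = 0.544), the signals of U75398_s_at being 57.3, 69.2 and 20 in PTX samples and 58.2, 73.9 and 75.1 in controls. On U75398_s_at PTX replicate 3 was far below the rest. Leaving out control replicate 1 gave -0.25 on rc_AI176662_s_at and -0.57 on U75398_s_at.

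**Figure D2:**
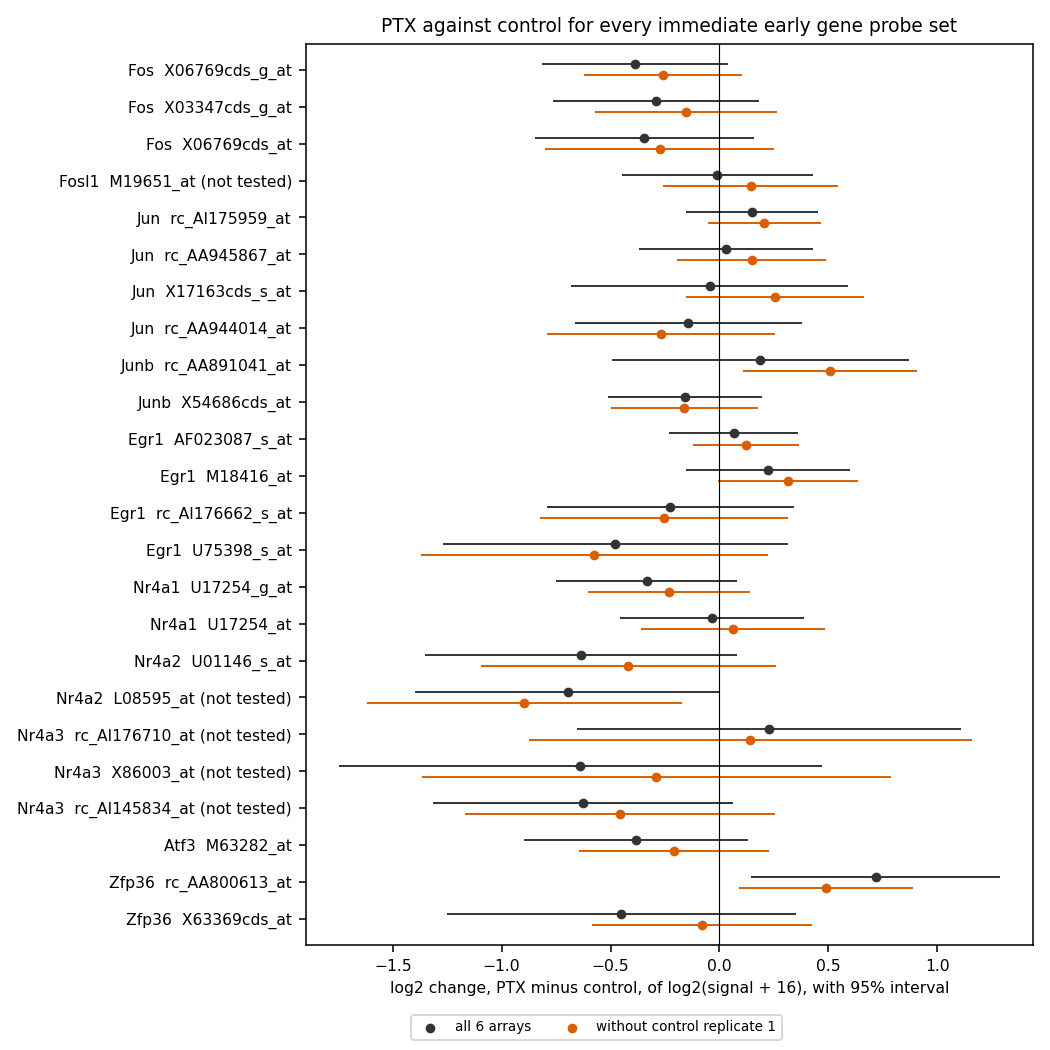
Log2 change of PTX minus control with its 95% interval for each of the 24 probe sets, over all 6 arrays (dark) and without control replicate 1 (orange). With all 6 arrays, the interval of 1 tested probe set, Zfp36 rc_AA800613_at, lies clear of 0, before adjustment for the number of probe sets.

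The NR4A genes encode nuclear receptors with no known classical ligand, induced by cAMP and by growth factors. Nr4a1, whose promoter window holds 4 copies of TGACG, read 197.7, 184.4 and 258.4 on U17254_g_at with PTX, against 315.0, 253.1 and 248.1 in controls. PTX replicate 3 lay among the controls and the other PTX samples below them, and the log2 change was -0.33 ± 0.18 (SE, adjusted p = 0.450), or -0.23 without control replicate 1. U17254_at, from the same sequence record, had 116.4, 97.7 and 127.4 with PTX, against 135.5, 113.7 and 102.3 in controls. There the groups were interleaved and the log2 change was -0.04 (adjusted p = 0.941), or 0.06 without control replicate 1.

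Nr4a2 gave the most negative change among the tested members, without passing. U01146_s_at had 65.3, 28.0 and 55.1 with PTX, against 117.4, 71.8 and 65.6 in controls. The groups did not overlap, though PTX replicate 1 and control replicate 3 were nearly equal. The log2 change was -0.64 ± 0.31 (SE, adjusted p = 0.435), or -0.42 without control replicate 1 (adjusted p = 0.560). L08595_at, below the filter, had 18.5, 5.0 and 6.7 with PTX, against 15.3, 23.9 and 40.1 in controls. These signals overlapped through PTX replicate 1 and control replicate 1. With no filter the log2 change was -0.70 (unadjusted p = 0.0510, adjusted p = 0.504), and it was -0.90 without control replicate 1.

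Nr4a3 stayed below the filter on all 3 probe sets, so it was not tested, and its signals overlapped between groups on each. The range was 6.1 to 40.5 with PTX and 8.2 to 59.5 in controls. The log2 changes with no filter were 0.23 for rc_AI176710_at, -0.64 for X86003_at and -0.63 for rc_AI145834_at, with adjusted p of 0.849, 0.666 and 0.542 in that order. They were 0.14, -0.29 and -0.46 without control replicate 1; that array was the highest control on X86003_at and rc_AI145834_at.

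Atf3, a stress-induced repressor and partner of JUN, was read by M63282_at at 109.1, 170.1 and 127.2 with PTX, against 231.8, 156.3 and 156.9 in controls. PTX replicate 2 lay inside the control range and the other PTX samples below it. The means were 135.5 ± 31.3 with PTX and 181.7 ± 43.4 in controls (SD, n = 3 each), with a log2 change of -0.38 ± 0.22 (SE, adjusted p = 0.473). Without control replicate 1, the highest sample, the log2 change was -0.21 (adjusted p = 0.662).

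Zfp36, which encodes tristetraprolin, gave opposite readings on its 2 probe sets. rc_AA800613_at had 422.6, 305.9 and 467.4 with PTX, against 164.6, 254.2 and 298.5 in controls. All PTX samples lay above all controls, PTX replicate 2 only narrowly above control replicate 3. The log2 change of 0.72 ± 0.25 (SE) was the largest upward value among the tested members, with an unadjusted p of 0.0201 and an adjusted p of 0.336. This probe set belongs to the class beginning with rc_AA799 or rc_AA800, whose 375 tested members had a median log2 change of 0.56, with 183 (48.8%) not overlapping between groups. Without control replicate 1 the change was 0.49 (adjusted p = 0.229), against a class median of 0.27. X63369cds_at had 164.0, 182.4 and 203.7 with PTX, against 437.8, 263.1 and 142.0 in controls. The PTX samples lay inside the wide control range, and the log2 change was -0.45 ± 0.35 (SE, adjusted p = 0.570), or -0.08 without control replicate 1 (adjusted p = 0.904). Control replicate 1 was thus the lowest control on rc_AA800613_at and the highest on X63369cds_at.

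Control replicate 1 was the highest of the 3 controls for 14 of the 19 tested members (73.7%), against 43.7% of all tested probe sets. Among those not named rc_ it was the highest for 11 of 13 members (84.6%), against 53.9% of all such probe sets. The members' median deviation from their 6-array means was -0.06, -0.03 and 0.03 on PTX arrays 1 to 3, and 0.22, 0.05 and -0.02 on control arrays 1 to 3. The median SD among replicates, on the log2 scale, was 0.21 with PTX and 0.23 in controls for the members, against 0.15 and 0.27 for all tested probe sets. The part of that array's technical state in the members' values was not tested.

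**Figure D3:**
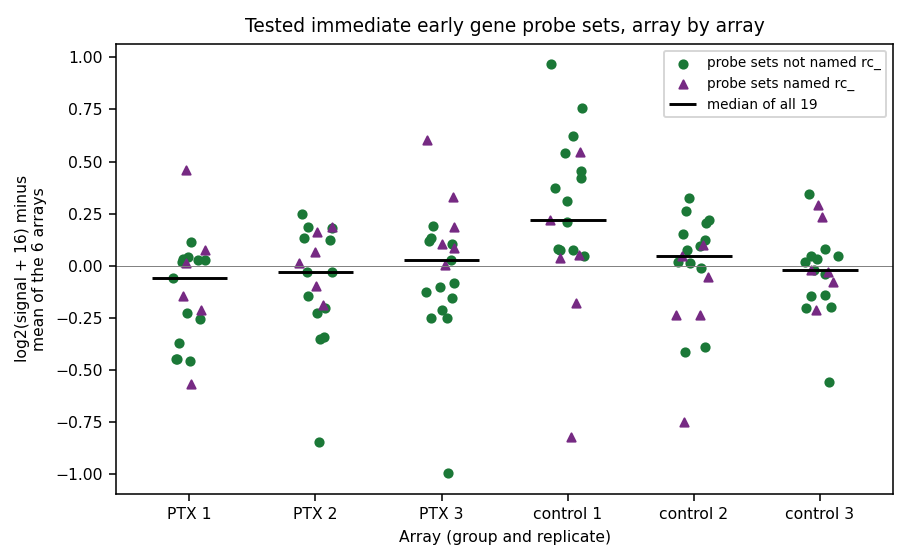
Deviation of log2(signal + 16) from the mean of the 6 arrays for the 19 tested probe sets (points), by array, with the median of all 19 as a bar; circles are probe sets not named rc_ and triangles those named rc_. The median is highest on control replicate 1, at 0.22, and the lowest rc_ point there is Zfp36 rc_AA800613_at.

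The genes around this set were counted in lists without the 10 genes themselves, and the shares to set beside calls in them are 0.0763% of all tested probe sets over 6 arrays and 2.21% without control replicate 1. Among other AP-1 and leucine zipper partners, 15 probe sets of 10 genes were tested and 0 passed, with a median log2 change of 0.08. Ddit3, a stress-induced zipper factor also called CHOP, had 744.5 ± 42.3 with PTX and 1341 ± 157 in controls (SD, n = 3 each), a log2 change of -0.83 (adjusted p = 0.114). Its change without control replicate 1 was -0.90 (adjusted p = 0.00594), and it was 1 of 15 called there. Maf had 0.52 on rc_AA893082_at (adjusted p = 0.275) and 0.16 on U56242_at. Nfe2l2 had 0.51 on rc_AI177161_g_at (adjusted p = 0.444) and 0.10 on rc_AI177161_at. Jdp2, a repressor of AP-1, had -0.85 (adjusted p = 0.459). Without control replicate 1 the first-named log2 changes were 0.58 for Maf, 0.40 for Nfe2l2 and -0.52 for Jdp2.

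Of other immediate early genes, 49 probe sets of 28 genes were tested and 0 passed, with a median of -0.04. Nfkbia, the NF-kB inhibitor that NF-kB itself induces, had log2 changes of 0.78 and 0.86 on its probe sets (adjusted p = 0.137 and 0.215). Both passed without control replicate 1 (adjusted p = 0.0135 and 0.00646) and were the 2 calls among the 49 there (4.08%), against 2.21% of all tested probe sets. Btg1, an antiproliferative gene, had 0.97 on L26268_g_at (adjusted p = 0.279) and 0.09 on L26268_at. Homer1, a synaptic scaffold gene with an activity-induced form, had -0.52 on AB017140_g_at (adjusted p = 0.324). Its other tested probe sets had 0.51, -0.04, -0.04 and -0.42, so its readings went both ways. Without control replicate 1 the log2 change was 0.68 on L26268_g_at and -0.34 on AB017140_g_at.

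In the MAP kinase and serum response list, 34 probe sets of 15 genes were tested and 0 passed with or without control replicate 1, with medians of -0.10 and 0.01. Dusp6, the phosphatase that ERK signalling induces and that switches ERK off, had 248.8 ± 36.2 with PTX and 373.9 ± 78.6 in controls (SD, n = 3 each). These signals were on X94185cds_s_at, with a log2 change of -0.55, or -0.39 without control replicate 1 (adjusted p = 0.336 over all 6 arrays). The other tested Dusp6 probe set, U42627_at, had -0.04. Sos1, an exchange factor for RAS, had 0.92 on rc_AA892860_g_at (adjusted p = 0.366) and 0.35 on rc_AA892860_at. Nras had 0.42 on rc_AA943331_s_at (adjusted p = 0.430) and -0.28 on X68394_at. Map2k5 had 0.40 on U37462_s_at (adjusted p = 0.450) and -0.12 on U37464_s_at. Without control replicate 1 the first-named log2 changes were 0.48 for Sos1, 0.30 for Nras and 0.55 for Map2k5.

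Among target genes of AP-1 and EGR1, 1 of 38 tested probe sets passed, and 1 of 22 among transcripts that ZFP36 is known to bind or that belong with it. These are 2.63% and 4.55% of the lists, against 0.0763% of all tested probe sets. In both lists it was Ccl2, a monocyte chemokine gene, on X17053cds_s_at. It rose to 2947 ± 37.3 with PTX, against 821 ± 259 in controls (SD, n = 3 each), a log2 change of 1.87 (adjusted p = 0.0429). The call was lost without any of the PTX replicates (adjusted p = 0.335, 0.355 and 0.295 without replicates 1 to 3), with a log2 change of 1.86 to 1.88, and in other settings given in the closing section. A second Ccl2 probe set, X17053mRNA_s_at, had 1.52 (adjusted p = 0.0635). Ccnd1, encoding cyclin D1, had -0.66 on D14014_g_at and Icam1, an adhesion molecule gene, 0.57 on D00913_g_at (both adjusted p = 0.184). Both of these probe sets passed without control replicate 1 (adjusted p = 0.0239 and 0.0228). The other tested probe sets had -0.48, -0.24 and -0.26 for Ccnd1 and 0.60 for Icam1. Il1b, in the ZFP36 list, had 74.6 ± 25.1 with PTX and 15 ± 9.40 in controls on M98820_g_at (SD, n = 3 each). The log2 change was 1.55 (adjusted p = 0.204), or 1.33 without control replicate 1. Its control signals of 6.2, 24.9 and 13.9 were near the bottom of the signal range. The other tested Il1b probe set, M98820_at, had 0.67. Without that array 4 of the 38 (10.5%) and 3 of the 22 (13.6%) passed, both Ccl2 probe sets and Ccnd1 being common to the lists, against 2.21% of all tested probe sets. The list medians were -0.11 for AP-1 and EGR1 targets and -0.13 for the ZFP36 list, against -0.02 for all tested probe sets.

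**Figure D4:**
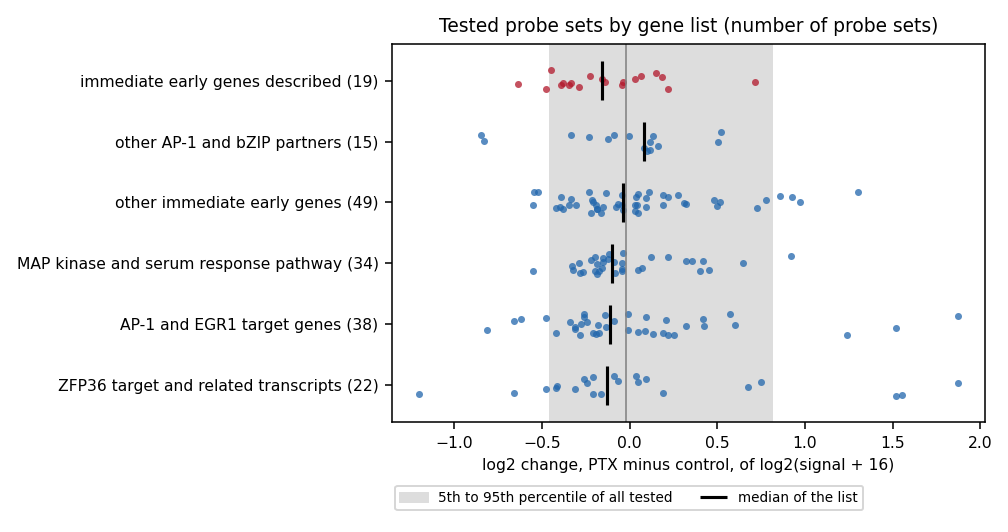
Log2 change of PTX minus control for each tested probe set (points) of the immediate early genes described and of 5 related lists, with list medians as bars and the 5th to 95th percentile of all tested probe sets, -0.45 to 0.81, as a grey band around their median (thin line). Most of the immediate early gene values lie within the band.

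The profile over the 6 arrays was compared with that of 4362 other tested probe sets that have 1 gene symbol, by Pearson correlation of log2 values. Those most like the brightest Fos probe set were Map3k1 (r = 0.991), Calu (0.986) and Bag6 (0.984), and all 3 were highest on control replicate 1. Map3k1 read 193.7, 238.1 and 232.3 with PTX, against 295.4, 246.2 and 253 in controls, its log2 change being -0.24 (adjusted p = 0.499). Those most like the brightest Egr1 probe set were LOC102554372 (0.991), Scg5 (0.962) and Chrm2 (0.937), with log2 changes of 0.14, 0.29 and 0.05. With 6 arrays and a search this wide, such values describe the profiles and carry no test.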

How the data were processed

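Per the labels' protocols, biotin-labelled cRNA from total RNA was hybridised to 1-colour Affymetrix arrays, and per the submitters' processing notes the authors used GCOS; the GCOS version and scaling target are not stated in the sources used, and detection calls were not used here. The deposited intensities are on a linear scale and were not scaled again; 0 pairs of arrays were identical. Of 8740 probe sets, 7006 have 1 gene symbol in the platform annotation, and 6985 symbols were updated by Entrez identifier with RefSeq names of GRCr8.

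Signals were analysed as log2(signal + 16). The 5244 probe sets with a mean at or above the 40th percentile were tested. PTX was tested against control with limma 3.58.1 in R 4.3.3 (eBayes with an intensity trend, two-sided, Benjamini-Hochberg over all tested, threshold 0.05). Intervals are 95% and moderated. The procedure was also run on simulated arrays with no outlying array and no shifted class of probe sets. That run therefore does not cover the state of control replicate 1. Alternatives changed the pseudocount, filter, normalization, variance model, array weights and replicate block, or left out an array or the rc_AA799 and rc_AA800 probe sets.

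The 10 genes, the lists and the alternatives were chosen with earlier results of these data known. All members are named. From each related list the 4 probe sets with the smallest p and any that passed are named, with the other tested probe sets of their genes. The 3 profiles most like Fos and Egr1 are also named. For markers, summed signals over each gene's brightest probe set are given, with genes below the filter. Thy1, Lum, Postn, Lyz2, Fcgr2b, Cd14 and C1qb were added after their values were seen.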

Additional observations from a re-analysis of the deposited data

How the results depend on the processing

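Under 18 alternatives, 0 member probe sets passed, with a smallest adjusted p of 0.1703 (without control replicate 3). The number of member probe sets with an unadjusted p under 0.05 was 0 to 3. Of 335 log2 changes of the 19 tested members over these alternatives, 322 kept their sign and 13 had the other sign. The 322 include settings that cannot alter a log2 change and so repeat the main value. These are the filters, no intensity trend, robust variances, the replicate block and leaving out the rc_AA799 and rc_AA800 probe sets. The count of kept signs is therefore no measure of stability. The 13 with the other sign were for Jun rc_AA945867_at -0.057 with quantile and -0.015 with cyclic loess normalization, -0.055 without PTX replicate 2 and -0.080 without control replicate 2. Its values with 1 array left out spanned -0.080 to 0.15. For Jun X17163cds_s_at they were 0.24 with array quality weights, 0.06 without PTX replicate 1 and 0.26 without control replicate 1 (-0.26 to 0.26 with 1 array left out). For Nr4a1 U17254_at they were 0.0063 with array quality weights, 0.057 without PTX replicate 2 and 0.061 without control replicate 1 (-0.12 to 0.061 with 1 array left out). Junb rc_AA891041_at had -0.14 without control replicate 2 (-0.14 to 0.51 with 1 array left out), Egr1 AF023087_s_at -0.017 without control replicate 3 (-0.017 to 0.12) and Egr1 rc_AI176662_s_at 0.0037 without PTX replicate 1 (-0.44 to 0.0037). The cause of these sign changes was not tested.

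Over all tested probe sets the 4 calls became 2 with a pseudocount of 1, 7 with 64, 2 with quantile normalization, 0 with no intensity trend, 9 with robust variances, 81 with array quality weights and 8 without the rc_AA799 and rc_AA800 probe sets. With the replicate block there were 0 (552 at an unadjusted p under 0.05, and 615 with no trend). Leaving out 1 array gave 0 to 116 calls: 0 without any of the PTX replicates (360 to 376 at an unadjusted p under 0.05), 116 without control replicate 1 and 29 without control replicate 3. In the related and marker lists together, the 1 call, Ccl2, became 0 with a pseudocount of 1, no filter, quantile normalization, the replicate block or no trend (adjusted p of Ccl2 0.0548 to 0.0987), 2 with robust variances or without the rc_AA799 and rc_AA800 probe sets, and 10 with array quality weights. Leaving out 1 array gave 0 to 10. Same-numbered PTX and control samples deviated from their group means with correlations of -0.09, -0.11 and -0.01, and unlike-numbered ones with -0.05 to 0.10. Deviations centred within groups of 3 cannot show whether same-numbered samples shared a preparation. The main fit did not treat the numbers as pairs, and the replicate block is the alternative that did.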
